A study of Arabidopsis thaliana with 8 samples.

Results

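Abscisic acid (ABA) dose was followed over the 6 arrays of imbibed seed, out of 8 arrays in the series. They were chosen by their treatment labels, with 2 arrays for each dose: 24 h of imbibition in water, in ABA at 3 µM and in ABA at 30 µM. All were Arabidopsis thaliana Col-0 seed, whose total RNA was labelled with biotin and hybridised to arrays that measure a transcript by a set of probes (a probe set). The other 2 arrays are of dry, untreated Col-0 seed. They were kept out of every fit and are given only beside the fitted values. Replicates carry the letters A and B. The arrays for 3 µM ABA carry the title numbers 3 (A) and 5 (B), whereas both arrays of each other group share a number. Whether replicates are separate lots of seed is not stated by the labels, and the p-values therefore reflect only how far these arrays spread, which may be technical.

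ABA is the hormone that builds up in maturing seed, where it promotes the storage and drying programme, and that holds back germination when it is supplied during imbibition. It is bound by soluble receptors that inhibit type 2C protein phosphatases, which frees SnRK2 kinases to activate bZIP transcription factors. Late embryogenesis abundant (LEA) proteins and dehydrins protect dry cells, and oleosins coat the oil bodies. The globulin storage proteins of the embryo belong to the wider cupin family.

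A line was fitted for each probe set through log2 signal at dose step 0 (water), step 1 (3 µM ABA) and step 2 (30 µM ABA). Its slope is the change in log2(signal + 4.19) per step. With equal group sizes the slope depends on the 30 µM and water means alone, and the 3 µM arrays act through the error, so the place of the 3 µM group was measured apart from it. In limma 166 of 15922 probe sets tested passed an adjusted p of 0.05 (1.04%), and 1768 (11.1%) had an unadjusted p under 0.05. Of the 166 called, 137 rose with dose (0.860% of those tested) and 29 fell (0.182%). A single gene is named for 86 of the rising and 12 of the falling probe sets, 4 rising ones name several genes, and 47 rising and 17 falling ones are unnamed here. Slopes of the rising probe sets lay between 0.373 and 1.83, with the highest on an unnamed one, and those of the falling between -1.12 and -0.366. The median slope of all tested was 0.007. Calls rested on few arrays: limma called 26 probe sets without water replicate A, 31 without 30 µM replicate A and 0 without 30 µM replicate B, where 1319 had an unadjusted p under 0.05. With spike-in scaling it called 99, of which 56.6% rose against 82.5% with the deposited scaling.

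The 3 µM arrays differed from each other in the rising transcripts. Replicate B was above replicate A in 128 of the 137 (93.4%), against 51.5% of all probe sets tested. In water B was above A in 95 of the 137 and at 30 µM ABA in 106, against 51.2% and 44.9% of all tested. The falling probe sets differed between the water arrays, where B was above A in 25 of 29 (86.2%). For them the share was 51.7% at 3 µM ABA and 58.6% at 30 µM ABA, beside the same shares of all tested. Title number and replicate cannot be told apart here, as each number holds 1 array of 3 µM ABA.

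The called single gene with the steepest rise was AT2G42560, a LEA gene. It had signals of 13.0 and 22.7 in water, 24.2 and 58.6 at 3 µM ABA and 147 and 189 at 30 µM ABA. Every array of a higher dose lay above every array of a lower dose. The slope was 1.496 ± 0.19 per step (SE, n = 2 arrays per dose, limma adjusted p = 0.0128). AT4G36600, another LEA gene, had 28.4 and 61.2 in water, 71.7 and 169 at 3 µM ABA and 205 and 472 at 30 µM ABA, again without overlap (slope 1.39 ± 0.22). AT3G22490, of the seed maturation protein group of LEA genes, had 15.9 and 38.3, then 25.04 and 94.0, then 162 and 207 in the same order of doses. Here water and 3 µM ABA overlapped, and 30 µM ABA lay above both (slope 1.34 ± 0.25). The dehydrin AT4G39130 had 19.8 and 37.1 in water, 48.3 and 87.7 at 3 µM ABA and 130 and 273 at 30 µM ABA, with no overlap between doses (slope 1.31 ± 0.19).

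Of 52 LEA and dehydrin genes listed, 36 have a named probe set and 29 passed the filter on low signals. Of these 9 rose, against 0.860% of all probe sets tested, 0 fell, and 21 had a slope above 0. All lists here were chosen with earlier results of these data known, so the shares set beside them describe and do not test. The median slope of the 29 was 0.390, beside 0.007 for all probe sets tested. It was 0.240 without 30 µM replicate B, and 0.279 with spike-in scaling, where 17 lay above 0 and the median of all was -0.095. The other rising members were AT1G72100, AT2G18340, AT5G44310, AT3G17520 and AT4G21020, at slopes of 0.870, 0.835, 0.739, 0.617 and 0.539. These 5 were named after their values were seen. In bulk seed, fewer cells of a type and less RNA per cell cannot be told apart.

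In the lists of oil body and storage proteins 3 of 4 and 3 of 6 tested genes rose with dose, against 0.860% of all probe sets tested. AT3G18570, of the oleosin family, had 44.2 and 38.2 in water, 71.6 and 98.8 at 3 µM ABA and 214 and 205 at 30 µM ABA. The doses did not overlap and replicates lay close together (slope 1.12 ± 0.095 SE, limma adjusted p = 0.00316). OLEO3, for a seed oleosin, had 207 and 199 in water, 281 and 267 at 3 µM ABA and 325 and 463 at 30 µM ABA (slope 0.459 ± 0.086). The oleosin AT3G01570 had 632 and 568, then 782 and 962, then 1067 and 1043 (slope 0.406 ± 0.073). All 4 tested genes of this list, out of 15 listed and 4 named, had slopes above 0.

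AT4G36700, a cupin in the list of storage proteins, had 102 and 115 in water, 196 and 265 at 3 µM ABA and 312 and 548 at 30 µM ABA (slope 0.946 ± 0.12). The cupin AT2G28490 had 327 and 479, then 461 and 747, then 1069 and 1081, with an overlap between water and 3 µM ABA (slope 0.716 ± 0.12). AT1G03890, a cruciferin-type globulin, had 29.6 and 27.9 in water, 35.9 and 46.6 at 3 µM ABA and 73.0 and 65.2 at 30 µM ABA (slope 0.577 ± 0.098). In the list of seed storage proteins 7 of 15 genes are named and 6 were tested. All 6 had slopes above 0, with a median of 0.550. Medians of both lists remained above 0 with quantile normalization, a common median and spike-in scaling (lowest 0.508 for oil body and 0.455 for storage proteins). With a pseudocount of 16 the storage median was 0.371, and with 1 it was 0.660. That of oil body proteins was 0.600 and 0.624.

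**Figure D1:**
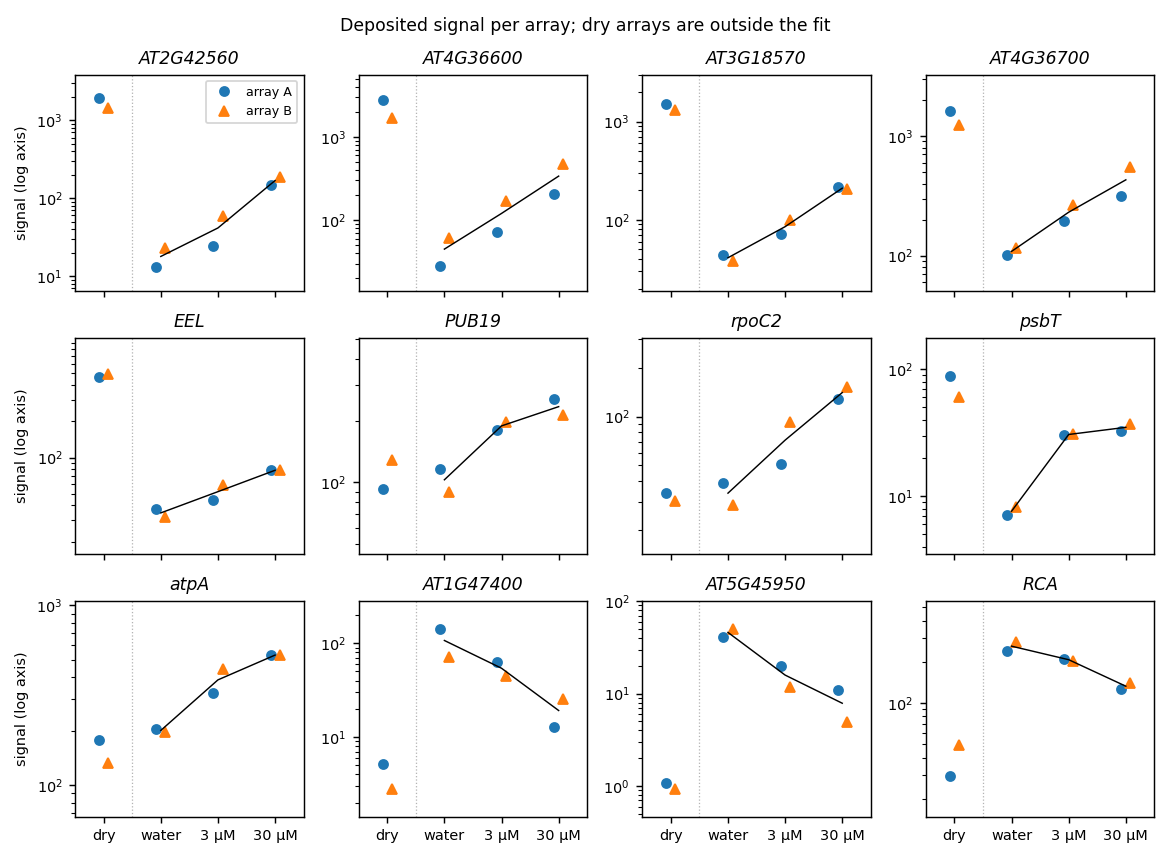
Deposited signal (log axis) of 12 genes on each array, with circles for replicate A and triangles for replicate B and a line through the means of the 3 imbibed doses. The dry arrays stand left of the dotted line and were not fitted. AT2G42560 lies at 13.0 and 22.7 in water and at 147 and 189 at 30 µM ABA, psbT lies at 30.4 and 30.9 already at 3 µM ABA, and AT1G47400 declines with dose.

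Among regulators, EEL, a bZIP factor of the ABI5 family that acts in seed maturation, rose. Its signal was 37.6 and 31.8 in water, 44.6 and 59.5 at 3 µM ABA and 78.4 and 78.3 at 30 µM ABA (slope 0.546 ± 0.096 SE, limma adjusted p = 0.0276). The doses did not overlap. Of 18 seed transcription factors listed, 3 are named and tested, and 1 rose, against 0.860% of all probe sets tested. AT5G18450, for an AP2-type factor of the DREB2 group, had 62.0 and 105 in water, 121 and 256 at 3 µM ABA and 364 and 368 at 30 µM ABA (slope 1.06 ± 0.16). PUB19, for a ubiquitin ligase, had 116 and 89.6, then 179 and 198, then 255 and 214, and was singled out after its values were seen (slope 0.581 ± 0.098). It differed from the genes above in dry seed, at 93.1 and 128.

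The rule for the steepest slopes among brighter probe sets gave further genes of other kinds. AT3G15280 had 28.8 and 38.3 in water, 60.4 and 164 at 3 µM ABA and 205 and 371 at 30 µM ABA (slope 1.45 ± 0.19). AT4G25580, of the CAP160 family, named from a cold acclimation protein of spinach, had a slope of 1.23 ± 0.23. AT5G01670, of the aldo-keto reductases, had 69.9 and 103, then 110 and 237, then 346 and 444 (slope 1.08 ± 0.16). AT5G01300, of the phosphatidylethanolamine-binding proteins, rose by 0.977 ± 0.18 per step. AT1G27990, AT5G45690 and AT5G45310 had slopes of 1.15, 1.13 and 1.08. Named after their values were seen, BGLU19, a beta-glucosidase, MGL, for methionine gamma-lyase, and AT3G56350, of the manganese superoxide dismutases, had slopes of 0.856, 0.657 and 0.734.

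Plastid-encoded transcripts formed the other large group. The plastid genome carries genes of the photosystems, the ATP synthase, the NDH complex, ribosomal proteins and a bacterial-type RNA polymerase. Of 69 plastid genes named, 67 were tested, 66 had slopes above 0 and 14 rose, against 0.860% of all probe sets tested. Their median slope was 0.335, beside 0.007 for all tested (0.224 with spike-in scaling, where 59 lay above 0). rpoC2, for a subunit of that polymerase, had 38.9 and 28.7 in water, 51.2 and 92.0 at 3 µM ABA and 128 and 153 at 30 µM ABA (slope 0.969 ± 0.13 SE, limma adjusted p = 0.0128). The doses did not overlap. rps4, for a small ribosomal subunit protein, had 88.0 and 132, then 175 and 346, then 320 and 451, with overlap between the ABA doses (slope 0.890 ± 0.16). atpF, for a subunit of the ATP synthase, had 36.2 and 53.5 in water, 92.1 and 139 at 3 µM ABA and 174.5 and 139 at 30 µM ABA (slope 0.864 ± 0.14), where the 2 ABA doses overlapped.

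psbT, for a small photosystem II subunit, had 7.06 and 8.18 in water, 30.4 and 30.9 at 3 µM ABA and 32.8 and 36.9 at 30 µM ABA (slope 0.863 ± 0.17). Nearly all of its rise lay in the first step, at 1.56 on the log2 scale against 0.164 in the second. With a pseudocount of 16 the slope was 0.553. The other rising plastid genes, named after their values were seen, were psaA, psaB, psaC and psbB of the photosystems, atpA and atpH, ndhD, rps2, ccsA and ycf3. Their slopes lay between 0.513 (ccsA) and 0.829 (atpH). Many of the 14 rising plastid genes are neighbours by locus number, such as psbB with psbT, and psaB, psaA, ycf3 and rps4. They may therefore not be independent of each other. Of 16 mitochondrial genes named, 12 were tested and 11 had slopes above 0. Against 0.860% of all probe sets tested, 1 of the 12 rose. This was ccb382, for a cytochrome c maturation protein, at 39.3 and 51.1 in water, 81.15 and 115 at 3 µM ABA and 131 and 130 at 30 µM ABA (slope 0.731 ± 0.11). The control probe set for 25S ribosomal RNA had 7.25 and 10.1 in water, 1.83 and 38.7 at 3 µM ABA and 28.3 and 13.6 at 30 µM ABA. Its part in the organelle slopes was not tested.

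**Figure D2:**
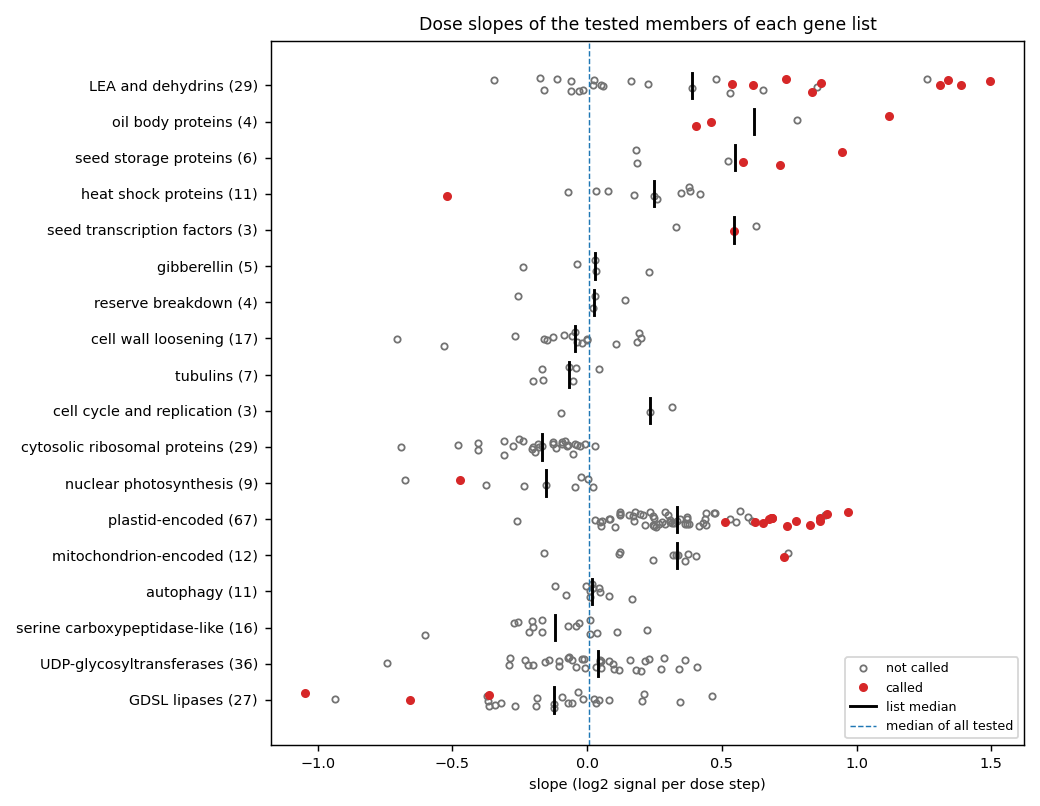
Slope in log2 signal per dose step for every tested member of the lists with 3 or more, with filled points for called members, a bar at each list's median and a dashed line at the median of all probe sets, 0.007. Vertical scatter within a list only separates points. The LEA list runs from -0.346 to 1.496, whereas 66 of 67 plastid genes lie above 0 within a narrower range that ends at 0.969.

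Falling transcripts were fewer. AT1G47400, for an IRON MAN peptide of the iron deficiency response, had 142 and 72.1 in water, 63.2 and 45.1 at 3 µM ABA and 12.75 and 25.6 at 30 µM ABA (slope -1.12 ± 0.17 SE, limma adjusted p = 0.0187). It is the only tested member of the 13 iron deficiency genes listed. The GDSL lipase family, secreted esterases many of which act on surface lipids, had 27 tested genes out of 42 named and 54 listed. Of the 27 tested 3 fell, against 0.182% of all probe sets tested, and 0 rose. This list too was chosen with earlier results of these data known. AT5G45950 had 41.3 and 50.6 in water, 19.9 and 11.8 at 3 µM ABA and 10.8 and 4.91 at 30 µM ABA, without overlap (slope -1.05 ± 0.16). AT4G16230 had 130 and 135, then 80.7 and 55.9, then 49.2 and 52.7 (slope -0.656 ± 0.11), and AT5G45670 fell by 0.366 per step. With a pseudocount of 16 the slope of AT5G45950 was -0.692. The family's median slope was -0.121, beside 0.007 for all tested. It was -0.070 at a pseudocount of 16 and -0.269 with the filter at the 50th percentile. With spike-in scaling it was -0.200, where the median of all was -0.095.

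MSRB9, for a methionine sulfoxide reductase, had 106 and 269 in water, 76.9 and 58.1 at 3 µM ABA and 49.6 and 37.4 at 30 µM ABA (slope -0.937 ± 0.18, and -0.608 with no call without water replicate B). AT1G29080, of the papain-type cysteine proteases, had 316 and 500, then 224 and 186, then 120 and 162 (slope -0.741 ± 0.12). RCA, for Rubisco activase, had 241 and 279 in water, 211 and 203 at 3 µM ABA and 126 and 140 at 30 µM ABA (slope -0.473 ± 0.078). In these 3 genes no array of a higher dose reached the level of a lower one. RCA was the 1 nuclear photosynthesis gene of 9 tested that fell, against 0.182% of all probe sets tested. PORB, for a light-dependent enzyme of chlorophyll synthesis, missed the threshold at -0.675 ± 0.145 (limma adjusted p = 0.0616) and was named after its values were seen. It was called with a common median (limma adjusted p = 0.0440), with spike-in scaling (adjusted p = 0.0444) and without water replicate A (adjusted p = 0.0300). AT4G21870, of the small heat shock proteins, fell (slope -0.521 ± 0.090). It was the 1 heat shock gene of 11 tested that fell, and 0 rose, against 0.182% and 0.860% of all probe sets tested. Slopes lay above 0 in 9 of the 11 (10 with quantile normalization and 7 with spike-in scaling). Their median was 0.249, beside 0.007 for all tested. MT1C, for a metallothionein, had 214 and 287, then 114 and 206, then 78.4 and 112 (slope -0.681 ± 0.13). AT3G22210 and AT5G13100 also fell and had slopes of -0.586 and -0.452, and so did AT5G09820 (-0.603), which was named after its values were seen.

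Several groups had no call. As 1.04% of all probe sets tested were called, 0 calls in a list of this size says little. Of 29 cytosolic ribosomal protein genes tested, out of 68 listed, 28 had slopes below 0 and 0 were called by limma, with 14 at an unadjusted p under 0.05, beside 11.1% of all probe sets tested. Their median was -0.166, beside 0.007 for all tested. It was -0.049 after quantile normalization, where 7 lay above 0, and -0.078 without water replicate A. With spike-in scaling it was -0.278, where the median of all was -0.095. The member with the smallest p, AT5G20290 of the S8 family, had 1726 and 697 in water, 762.5 and 407 at 3 µM ABA and 500 and 352 at 30 µM ABA (slope -0.689, adjusted p = 0.177). The slope was -0.370 without water replicate A, and spike-in scaling gave -0.800 and a call (adjusted p = 0.0371). Its water arrays differed more from each other than did the 2 arrays of either ABA dose. Cell wall loosening genes (17 tested), tubulins (7), serine carboxypeptidase-like genes (16), UDP-glycosyltransferases (36), autophagy genes (11), gibberellin genes (5), reserve breakdown genes (4) and cell cycle genes (3) also had 0 calls in limma, with 3, 1, 6, 7, 0, 1, 0 and 1 at an unadjusted p under 0.05, to be read beside the same 11.1%. Their medians lay between -0.120 and 0.234. The members with the smallest p were XTH33 (-0.531), TUA6 (-0.199), SCPL34 (-0.601), UGT71C1 (-0.743), ATG8G (-0.118), the gibberellin receptor gene GID1A (0.228), the lipase gene SDP1 (0.142) and HBT (0.234). Their slopes rested on few arrays or on the scaling. Without water replicate A the slope of ATG8G was 0.029, that of TUA6 -0.074 and that of HBT 0.151. Without water replicate B that of ATG8G was -0.245, that of XTH33 -0.275 and that of SCPL34 -0.339. UGT71C1 had -0.356 without 30 µM replicate B and -0.379 with a pseudocount of 16. With spike-in scaling GID1A had 0.118, SDP1 0.031, HBT 0.127, ATG8G -0.226 and TUA6 -0.311, and with quantile normalization TUA6 had -0.028. SPT, a bHLH regulator of germination and the only tested member of the dormancy list, had 241 and 251, then 232 and 173, then 162 and 163 (slope -0.291 ± 0.081, adjusted p = 0.161). ABA synthesis genes, receptors, clade A phosphatases and SnRK2 kinases have no named probe set here and were not analysed.

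The place of the 3 µM arrays was measured as their departure from the midpoint between water and 30 µM ABA, an estimate that does not reuse the slope. Limma called 0 departures (0% of those tested), with 317 unadjusted p-values under 0.05, against 796 if all were uniform. The mean of 3 µM ABA lay between the other means in all 166 called probe sets, which the choice of probe sets favours because a departure enlarges the error of the line. Arrays of the 3 doses stood in rising order without overlap in 105 of the 137 rising probe sets, against 2.61% of all tested, and in falling order in 27 of the 29 falling, against 2.19% of all tested. Both shares follow largely from the choice by slope.

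Among groups, the first step was larger than the second in organelle transcripts with the deposited scaling and smaller in LEA genes. Over the 67 plastid genes, called or not, the median change was 0.514 for 3 µM ABA over water and 0.183 for 30 µM over 3 µM ABA. The departure was above 0 in 51 of 67, against 53.7% of all tested. An unadjusted p under 0.05 was found in limma for 6, against 317 of all 15922. The median departure was 0.128, beside 0.014 for all tested. The median was 0.045 without water replicate B, 0.080 without 3 µM replicate B and 0.196 without 3 µM replicate A. Over the 12 mitochondrial genes the median steps were 0.516 and 0.041, with the departure above 0 in 10, against the same 53.7%. Their median departure was 0.258, with 0.099 without 3 µM replicate B, 0.469 without 3 µM replicate A and 0.151 without 30 µM replicate B. Over the 29 LEA genes the median steps were 0.274 and 0.460, with the departure below 0 in 23, against 7375 of all 15922 tested. Their median departure was -0.168. That sign rests on 1 array, since the LEA median was 0.230 without 3 µM replicate A and -0.523 without 3 µM replicate B. It was -0.004 without water replicate B, -0.059 without 30 µM replicate B and -0.271 without 30 µM replicate A. Spike-in scaling moved the departure of all probe sets to a median of 0.382, and those of plastid and LEA genes to 0.510 and 0.216. The difference in departure between the lists was not tested. The 2 named genes with the smallest departure p were AT2G47560, at 30.3 and 24.7 in water, 42.4 and 35.2 at 3 µM ABA and 14.2 and 10.6 at 30 µM ABA (departure 0.908 ± 0.21, unadjusted p = 0.00181, limma adjusted p = 1), and AT5G58530, which was lowest at 3 µM ABA (departure -0.770, unadjusted p = 0.00221, adjusted p = 1).

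**Figure D3:**
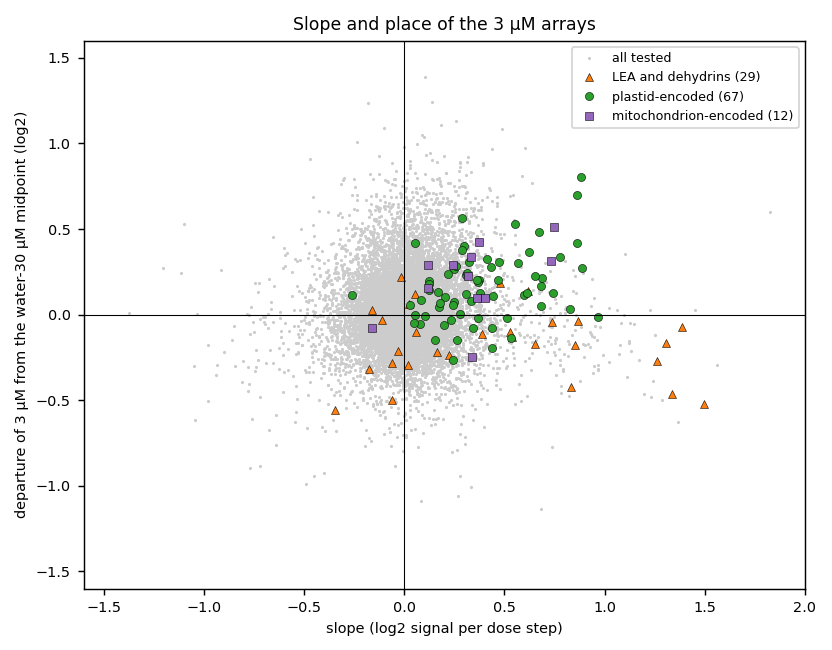
Slope (horizontal axis, log2 signal per dose step) against the departure of the 3 µM mean from the water and 30 µM midpoint (vertical axis, log2) for all tested probe sets in grey, with LEA, plastid and mitochondrial genes marked. With the deposited scaling plastid genes lie mostly in the upper right, 51 of 67 above 0, and LEA genes mostly below 0, 23 of 29. Of all tested probe sets 53.7% have a departure above 0.

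Dry seed gave a measure that the line did not use. At the deposited scaling the 30 µM arrays had median signals of 33.6 and 32.6 and spike-in means of 147 and 186, against medians of 21.5 and 21.0 and spike-in means of 268 and 279 for the dry arrays. Both dry arrays lay above both 30 µM arrays in 116 of the 137 rising probe sets, against 34.1% of all tested. In scalings added after the data were seen, the count was 97 with the spike-ins set equal, against 16.5% of all tested, and 125 with the medians set equal, against 51.8%. The median signal of the rising group, by the mean of the 2 arrays, was 74.6 in water, 120 at 3 µM ABA, 233 at 30 µM ABA and 1402 in dry seed. The 2 dry arrays lay close in some genes, such as AT1G03890 (2056 and 1919), and far apart in others. BGLU19 had 3088 and 987 in dry seed, against 718 and 876 at 30 µM ABA. AT2G42560 had 147 and 189 at 30 µM ABA and 1928 and 1447 in dry seed, and EEL 78.4 and 78.3 at 30 µM ABA and 471 and 497 in dry seed, so both stayed below dry seed at the highest dose. Of the rising probe sets 21 did not have both dry arrays above 30 µM ABA, 11 of them plastid genes. Among the 14 rising plastid genes 8 had both dry arrays below both 30 µM arrays and 3 had both above. psbT was one of these 3, at 32.8 and 36.9 against 88.7 and 60.3 in dry seed. Over all 67 plastid genes tested 31 lay below and 20 above, against 47.5% and 34.1% of all probe sets tested. Of the 8 lower ones, atpA had 528 and 531 at 30 µM ABA against 178 and 134 in dry seed. rps4 had 320 and 451 against 73.1 and 58.1, and rpoC2 128 and 153 against 33.8 and 30.2. AT5G01210, of the BAHD-type acyltransferases, was also lower in dry seed, with 92.4 and 156 at 30 µM ABA against 19.6 and 40.9. It was singled out after its values were seen.

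In the falling group both dry arrays lay below both 30 µM arrays in 26 of 29, against 47.5% of all tested. The count was 27 with the spike-ins set equal, against 66.2% of all tested, and 21 with the medians set equal, against 30.8%. The group's median was 133 in water, 86.4 at 3 µM ABA, 52.7 at 30 µM ABA and 7.38 in dry seed. RCA, at 126 and 140 at 30 µM ABA, had 29.6 and 49.1 in dry seed, and AT1G29080, at 120 and 162, had 0.583 and 2.93. MT1C was an exception, at 78.4 and 112 at 30 µM ABA and 113 and 449 in dry seed.

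**Figure D4:**
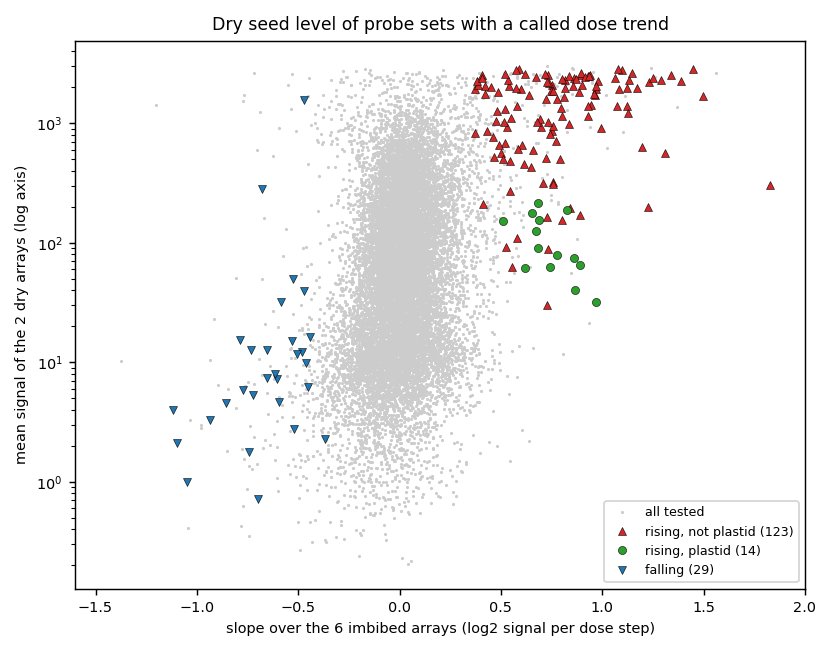
Mean signal of the 2 dry arrays (log axis) against the slope over the 6 imbibed arrays for all tested probe sets in grey. The 123 rising probe sets outside the plastid genome lie mostly at the top right, the 14 rising plastid genes at intermediate dry levels and the 29 falling probe sets mostly at the bottom left, with a dry median of 7.38 against 1402 in the rising group.

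Checks over the imbibed arrays bear on all of these values. Median signal of the imbibed arrays was 30.9 to 33.8, and arrays correlated at 0.969 to 0.983 within a dose and at 0.964 to 0.983 between doses across probe sets, which are not independent replicates. A sign of RNA quality is the ratio of signal at the 3' end of control transcripts to that at the 5' end. On the imbibed arrays it lay below 1 throughout for the first GAPDH set (0.371 to 0.927). It lay above 1 for both actin sets and on both sides of 1 for the rest. Dose was tested on 6 such ratios by exact permutation of the dose labels over 90 arrangements. The smallest possible p was 0.0222, two-sided. All 6 slopes were below 0, but that rests on 1 array. Without water replicate A the GAPDH slope was 0.222 and those of the second actin and ubiquitin sets 0.042 and 0.019. The steepest, of ubiquitin, was -0.296 on the log2 scale (exact p = 0.289) and -0.008 without that array, and the smallest p belonged to actin, at 2.94 and 3.80 in water, 2.42 and 2.73 at 3 µM ABA and 2.69 and 2.30 at 30 µM ABA (exact p = 0.0889, adjusted p = 0.533). Of 12 seed markers only OLEO3 is named, and it lay at 199 to 463 on the imbibed arrays. On the same arrays the leaf marker LHCB4.2 lay at 6.27 to 24.6 and the guard cell lineage genes SPCH, MUTE and FMA at 7.01 to 55.1, with no order by dose. The root marker EXPA7 and the pollen marker AGL66 were at most 8.69 there and below the filter, although both were higher on the ABA arrays than on the water arrays (1.70 or less and 3.26 or less). In dry seed LHCB4.2 had 79.5 and 134, EXPA7 9.90 and 5.52 and AGL66 4.74 and 11.98. The endosperm markers are unnamed here.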

How the data were processed

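Values are the signal intensities that the authors deposited, 1 per probe set and array on a linear scale. The tool, per the submitters' processing notes, was MAS5 (no version), and the genome build is not given in the sources used here. The trimmed mean of each array was 100.007 to 100.009, so the scaling sets a common total and hides differences in total messenger RNA. Depth has no meaning for arrays, and their number limits the precision.

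Of 22810 probe sets, 64 controls were left out. Platform annotation names 1 gene for 13513, several for 503 and none for 8730, and 13436 matched the RefSeq table of TAIR10.1. Signals of the 6 imbibed arrays were transformed as log2(signal + 4.19), the 20th percentile of all values. Probe sets with a mean above the 30th percentile were kept. The line (4 residual degrees of freedom) and the 3-group fit for the departure (3) were made in limma 3.58.1 under R 4.3.3, with empirical Bayes moderation, an intensity trend, two-sided tests and Benjamini-Hochberg adjustment at 0.05 over all probe sets tested. The procedure was also run on simulated data with independent errors. These hold no effect of array or replicate letter, so the run cannot tell how such effects act on the calls.

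Named genes are the 12 highest and 12 lowest slopes among called probe sets of a single gene that are brighter than the median (only 9 fell), up to 4 called members of each list or, with none, the member with the smallest p, and the 2 smallest departure p-values. Genes outside this rule are marked in the text. A gene with several probe sets stands by its brightest. The groups and lists were chosen with earlier results of these data known. Lists go by locus code or symbol, and counts refer to them and not to whole families. Alternatives were other pseudocounts, filters, scalings, dose codings and error estimates, a replicate block and leaving out each array. Scaling of the dry arrays by spike-ins or medians was added after seeing the data. No sequences were used here, so promoter motifs were not analysed.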

Additional observations from a re-analysis of the deposited data

How the results depend on the processing

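The count of 166 called trends was 146 to 172 with a pseudocount of 1 or 16, a filter at the 50th percentile, quantile normalization, a common median or dose coded as log10(µM + 1). It was 2 without the filter, where 22746 probe sets were tested and 2005 had an unadjusted p under 0.05. It was 1 without the intensity trend of the error (1608 unadjusted), 59 with the error from within groups only and 99 with spike-in scaling, of which 56 were among the 166. With dose in µM limma called 0 (1304 unadjusted). Causes were not tested. Leaving out single arrays gave 0 to 208. The departure at 3 µM had 0 calls in limma in all alternatives run except spike-in scaling, with 1. With the replicate letter as a block 490 trends were called, all 166 among them. Deviations of same-letter arrays correlated at 0.311, 0.238 and 0.0967, all above 0. The labels do not state a pairing, and the main fit left the letter out. Whether arrays of 1 letter share an effect was not tested, and the block changed no departure call. Among named genes without a called trend, AT5G20290, PORB and SCPL34 were called with the block (adjusted p = 0.00112, 0.0103 and 0.0295 in limma). Alternatives were followed for 56 genes with a called trend, which include AT3G10200, not named above, and leave out AT5G09820. None of the 56 turned its direction in an alternative that tested it, where the filter at the 50th percentile tested 53. In 33 the call was lost with spike-in scaling, in 27 with the error from within groups, in 55 without the filter and in 56 without 30 µM replicate B. Low signals have no stated background limit.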
